A study of Mus musculus with 12 samples.

Results

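Protocadherin genes were followed in the frontal cortex of mice that lack Upf3b. Members were all genes of the deposited count table whose symbol starts with Pcdh, and there were 65 of them among 14909 genes. Of these, 54 were clustered protocadherins (11 Pcdha, 21 Pcdhb and 22 Pcdhg genes) and 11 were non-clustered (Pcdh1, Pcdh7, Pcdh8, Pcdh9, Pcdh10, Pcdh11x, Pcdh15, Pcdh17, Pcdh18, Pcdh19 and Pcdh20). All 65 passed the filter on low counts and were tested. RefSeq lists 5 further Pcdh symbols (Pcdh12, Pcdha4, Pcdha6, Pcdha7 and Pcdhb1), which were not analysed here.

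RNA sequencing libraries came from 12 C57BL/6 mice, 1 library per mouse as the sample titles number them. There were 7 wild-type animals (WT 1 to 7) and 5 animals labelled UPF3B KO (KO 1 to 4 and KO 6), and both groups were housed free of pathogens. Age, sex, litter and the design of the null allele are not stated in the labels. The question was which genes differ in level between null and wild-type cortex. UPF3B is an X-linked factor of nonsense-mediated decay, the pathway that degrades transcripts with a premature stop codon or with an exon junction downstream of the stop.

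Protocadherins are cadherin-family adhesion proteins found mostly in neurons. The clustered genes lie in 3 tandem arrays: each alpha or gamma gene is a large variable exon with its own promoter that is spliced to constant exons shared by its array, while beta genes stand as single-exon units. Individual neurons choose promoters from the arrays by chance, and the resulting protein combinations bind only like combinations and let a neuron tell its own branches from those of others. The C-type genes (Pcdhac and Pcdhgc) lie largely outside that random choice. Non-clustered delta protocadherins are separate genes at scattered loci that guide axons, synapses and cell sorting, and variants of human PCDH19 cause an epilepsy with intellectual disability.

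Library totals ran from 4684039 to 5425774 counts in WT and from 4990643 to 6617759 in KO, and all KO libraries except KO 1 were deeper than every WT library, so depth and genotype cannot be fully told apart. Upf3b itself had 157 to 219 counts in WT and 11 to 24 in KO, a log2 fold change of -3.78 ± 0.13 (SE; adjusted p = 7.206e-11, edgeR quasi-likelihood test with Benjamini-Hochberg adjustment). Markers of cortical excitatory neurons were present, with Slc17a7 at 398 and Tbr1 at 164 on average in WT in CPM, which are counts scaled to a common library total. Of 14274 tested genes, 29.7% passed an adjusted p of 0.05, 15.3% higher in KO and 14.4% lower. WT 6 and WT 7 were the most alike pair of libraries within a group. The chi-square of their counts per degree of freedom was 1.025, little above what counting noise alone gives. Other pairs within a group had 1.196 to 7.052. Ttr differed between them, at 9 and 56 counts, and they were kept as 2 samples. That gene alone cannot show that they came from 2 mice, so the 7 WT libraries may not be 7 independent replicates.

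Protocadherin transcripts made up 0.223% to 0.270% of all counts in WT and 0.251% to 0.275% in KO. Of the 65 genes 7 rose in KO (Pcdh15, Pcdhgb8, Pcdhgc4, Pcdh19, Pcdh17, Pcdh8 and Pcdh1) and 1 fell (Pcdhga6). Together these 8 are 12.3% of the family, against 29.7% of all tested genes. KO values lay wholly above WT values in 3 members, Pcdh15, Pcdhgc4 and Pcdh19, which is 4.62% of the family against 5.84% of all tested genes. KO values lay wholly below WT values in 0 members, against 4.8% of all tested genes.

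The called genes were not spread evenly over the classes. Among the 11 non-clustered genes 5 rose and the other 6 did not pass (45.5% called), whereas among the 54 clustered genes 2 rose and 1 fell (5.56% called). The DESeq2 Wald test, which called 26% of all genes (11.3% higher and 14.7% lower), called 4 non-clustered genes higher and, of the clustered genes, 2 higher and 1 lower. The median log2 fold change was 0.17 for non-clustered genes, 0.10 for clustered genes and 0.03 for all tested genes. Values above 0 were seen for 8 of 11 non-clustered genes, 44 of 54 clustered genes (81.5%) and 56.2% of all tested genes. Standard errors were larger for clustered genes, with a median of 0.135 against 0.0751 for non-clustered genes on the log2 scale, and their median count per library was 90.3 against 408. The share called therefore compares sets measured with unequal precision, and the difference between the classes was not tested.

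**Figure D1:**
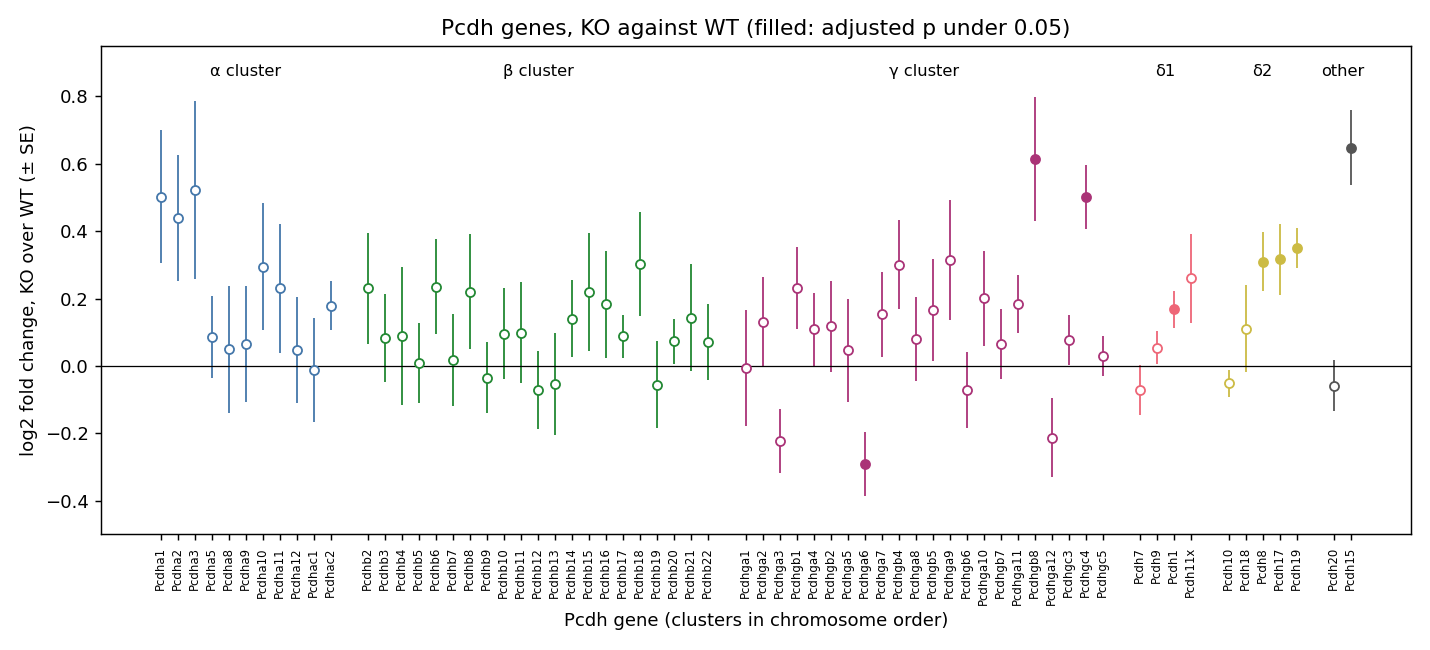
Log2 fold change of each Pcdh gene, KO over WT, with its standard error (vertical axis) for 65 genes by class, clustered genes in chromosome order (horizontal axis). Filled points passed an adjusted p of 0.05: 5 among the 11 non-clustered genes and 3 among the 54 clustered genes.

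Pcdh19, a delta-2 protocadherin on chromosome X (mm10, 133582860 to 133689044) and the disease gene of the group, was among the members that rose. It ran from 62.1 to 76.3 CPM in WT with a median of 63.3, and it stood at 84.3, 89.6, 81.8, 90.3 and 79.7 CPM in KO 1, 2, 3, 4 and 6. Each KO library was above each WT library. The means were 66.8 ± 5.98 CPM (SD, n = 7) and 85.1 ± 4.70 CPM (SD, n = 5), a log2 fold change of 0.35 ± 0.06 (SE; adjusted p = 0.00108, edgeR quasi-likelihood test). The call held whichever library was left out, with the highest adjusted p at 0.00505 by the same test.

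Pcdh8, an activity-regulated delta-2 gene also known as arcadlin (chromosome 14, 79766772 to 79771312), ran from 45.8 to 65.0 CPM in WT, with a median of 48.4. Its KO values were 69.7, 59.9, 64.5, 57.4 and 71.3 CPM. WT 5 at 65.0 CPM and WT 4 at 57.5 CPM reached into the KO range, and the other WT libraries stayed below it. The log2 fold change was 0.31 ± 0.09 (SE; adjusted p = 0.0167, edgeR quasi-likelihood test).

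Pcdh17, a delta-2 gene of corticostriatal axons (chromosome 14, 84443563 to 84537565), ran from 103 to 177 CPM in WT with a median of 129. KO libraries had 152, 199, 147, 170 and 167 CPM. The groups overlapped through WT 3 at 149 CPM and WT 4 at 177 CPM. Its log2 fold change of 0.32 ± 0.11 (SE; adjusted p = 0.0343, edgeR quasi-likelihood test) was the least secure of the delta-2 calls: 8 of the 12 single libraries ended it when left out (WT 1, 2, 5, 6 and 7, KO 2, 4 and 6), with adjusted p up to 0.0925.

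Not all delta-2 genes moved. Pcdh10, the most abundant protocadherin per library, had 344 to 393 CPM in WT with a median of 358, and 370, 334, 353, 351 and 349 CPM in KO. WT 3 (393) and WT 4 (379) lay above every KO library and KO 2 below every WT library, and the other libraries overlapped. The log2 fold change was -0.05 ± 0.04 (SE; adjusted p = 0.364, edgeR quasi-likelihood test). Pcdh18, the remaining delta-2 gene and the scarcest non-clustered one at 13.8 CPM in WT, had a log2 fold change of 0.11 ± 0.13.

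Of the delta-1 genes, Pcdh1 rose, though by little. Pcdh1 (chromosome 18, 38185914 to 38212048) ran from 112 to 139 CPM in WT with a median of 128, and had 154, 132, 134, 150 and 147 CPM in KO. KO 2 and KO 3 lay within the WT range and KO 1, 4 and 6 above it. The log2 fold change was 0.17 ± 0.05 (SE; adjusted p = 0.0305, edgeR quasi-likelihood test). The DESeq2 Wald test gave an adjusted p of 0.0553, and 6 single libraries ended the edgeR call when left out (WT 1, 2 and 3, KO 1, 4 and 6).

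The other delta-1 genes, which carry a longer cytoplasmic tail with a phosphatase-binding motif, did not pass. Pcdh7 had a log2 fold change of -0.07 ± 0.07, with KO 2 at 215 CPM and the other KO libraries at 279 to 296. Pcdh9 had one of 0.05 ± 0.05, with means of 201 ± 10.4 CPM (SD, n = 7) in WT and 209 ± 14.1 CPM (SD, n = 5) in KO. Pcdh11x on chromosome X had one of 0.26 ± 0.13 (adjusted p = 0.148, edgeR quasi-likelihood test), and its widely spread KO values, 44.0 to 71.4 CPM, overlapped the WT range of 34.3 to 54.9.

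Pcdh15 rose in KO. It encodes the tip-link partner of cadherin 23 in hair cells, and in brain it is a known transcript of oligodendrocyte precursors. WT libraries ran from 25.1 to 40.7 CPM with a median of 37.9, and KO libraries had 52.4, 66.3, 55.0, 59.1 and 46.4 CPM. No KO library fell within the WT range. The means were 35.7 ± 5.84 CPM (SD, n = 7) and 55.8 ± 7.43 CPM (SD, n = 5), 1.57-fold, with a log2 fold change of 0.65 ± 0.11 (SE; adjusted p = 0.00104, edgeR quasi-likelihood test). Pcdh20, the other gene outside the delta classes, had means of 42.6 ± 4.50 CPM (SD, n = 7) and 40.8 ± 3.23 CPM (SD, n = 5), with a log2 fold change of -0.06 ± 0.08.

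Markers of oligodendrocyte precursors moved with Pcdh15. Of 7 markers 5 rose (Pdgfra, Cspg4, Olig2, Gpr17 and Neu4) and 2 did not pass (Olig1 and C1ql1), with a median log2 fold change of 0.28 over the list; 15.3% of all genes were called higher. With density offsets, which remove each library's smooth trend of counts with counts per exonic base, 3 were called higher (Cspg4, Olig2 and Gpr17), against 8.31% of all genes, and Pdgfra and Neu4 no longer passed (adjusted p = 0.0687 and 0.114, edgeR quasi-likelihood test). Their summed level was 397 to 459 CPM in WT and 471 to 533 CPM in KO, so these ranges did not overlap, and no marker was at 0. Cspg4, a proteoglycan of these cells, rose by 0.50 ± 0.09 on the log2 scale and Pdgfra, their growth factor receptor, by 0.28 ± 0.07. Their part in the result for Pcdh15 was not tested. In bulk tissue, a change in the number of cells of a type and a change in RNA per cell cannot be told apart.

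**Figure D2:**
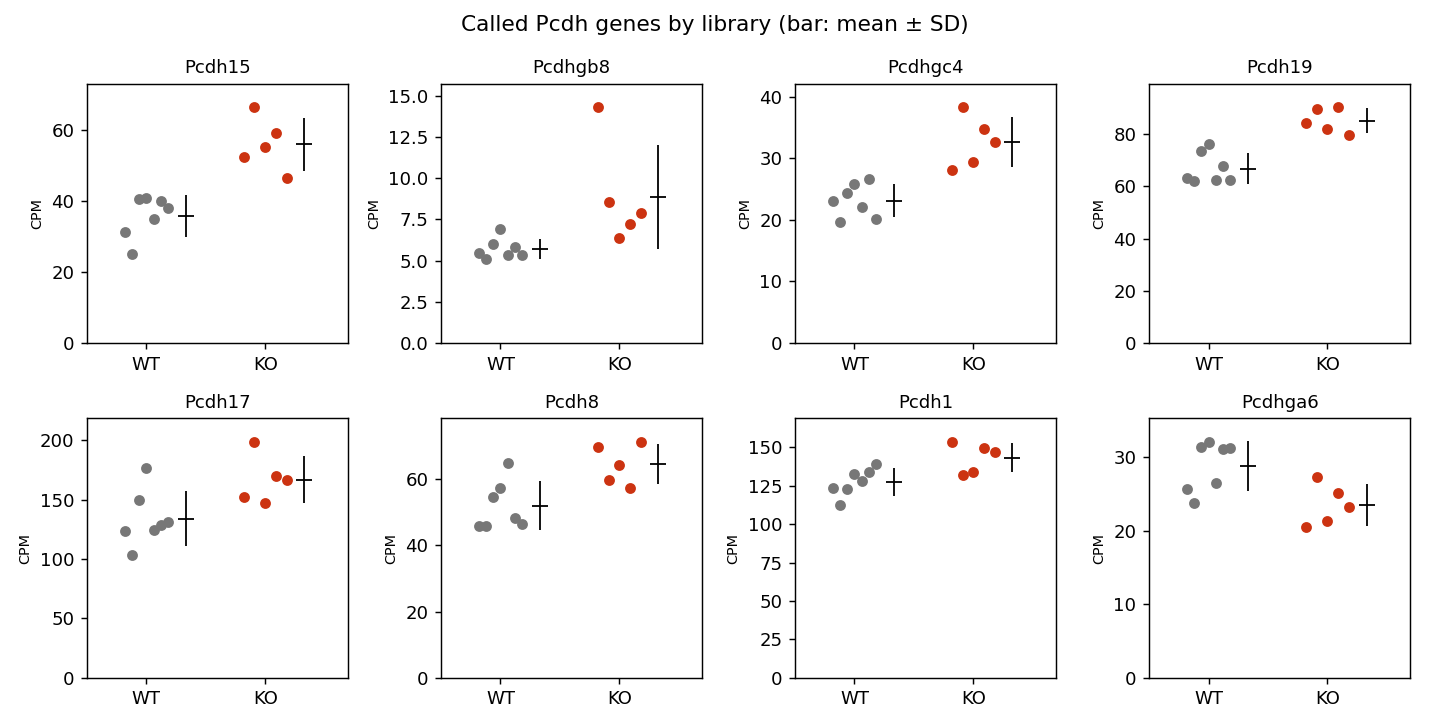
CPM (vertical axis, from 0) of the 8 Pcdh genes that passed an adjusted p of 0.05, by group (horizontal axis); points are libraries in order of mouse number, and bars beside them are means ± SD. KO points lie wholly above WT points for Pcdh15, Pcdhgc4 and Pcdh19, and 1 KO library at 14.3 CPM stands apart for Pcdhgb8.

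The regions just upstream of Pcdh15, Pcdh8, Pcdh17 and Pcdh19 are shown because these 4 non-clustered genes all rose, and because RefSeq, whose promoter table matched 9 of the 65 members, gives their starts. Each is the 250 bases before the listed start on GRCm38.p6, the mm10 assembly, read along the gene's strand. For Pcdh19 the last 51 of them lie inside the gene's full RefSeq span and are left out, so 199 are shown. They lie at chr10:73821617-73821866 on the plus strand for Pcdh15, chr14:79771313-79771562 on the minus strand for Pcdh8, chr14:84443313-84443562 on the plus strand for Pcdh17 and chrX:133689045-133689243 on the minus strand for Pcdh19. The start used for Pcdh15 lies inside the gene's full span of 73096277 to 74649831. Capitals mark matches to the motifs described next.
Pcdh15: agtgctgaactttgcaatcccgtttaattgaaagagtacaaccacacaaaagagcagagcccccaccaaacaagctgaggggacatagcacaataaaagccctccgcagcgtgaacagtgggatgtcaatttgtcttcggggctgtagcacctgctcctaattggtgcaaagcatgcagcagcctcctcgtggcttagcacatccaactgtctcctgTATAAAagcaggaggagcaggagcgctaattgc
Pcdh8: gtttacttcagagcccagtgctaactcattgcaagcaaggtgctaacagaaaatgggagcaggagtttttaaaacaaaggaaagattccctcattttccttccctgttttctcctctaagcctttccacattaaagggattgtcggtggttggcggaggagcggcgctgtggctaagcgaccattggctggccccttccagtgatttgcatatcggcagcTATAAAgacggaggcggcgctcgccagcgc
Pcdh17: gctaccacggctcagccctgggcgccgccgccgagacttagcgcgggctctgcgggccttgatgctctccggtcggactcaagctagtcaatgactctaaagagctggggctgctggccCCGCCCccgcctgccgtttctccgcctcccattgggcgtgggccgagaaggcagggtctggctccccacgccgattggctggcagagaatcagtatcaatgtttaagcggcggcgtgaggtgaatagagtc
Pcdh19: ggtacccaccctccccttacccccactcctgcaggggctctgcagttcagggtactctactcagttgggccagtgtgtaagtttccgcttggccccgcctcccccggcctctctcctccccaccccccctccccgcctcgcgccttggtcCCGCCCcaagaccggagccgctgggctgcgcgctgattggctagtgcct

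Searched on both strands were the TATA box TATAAA, the GC box GGGCGG and the cAMP response element TGACGTCA. Pcdh15 and Pcdh8 each held TATAAA on the gene's strand, with the first base 33 and 30 bases before the start. Pcdh17 and Pcdh19 each held GGGCGG on the other strand, printed as its complement, from 131 and 100 bases before the start. Every window held 1 match, so none overlapped another. Among 32851 windows of 250 bases, 12.4% held TATAAA, 32.7% GGGCGG and 1.55% TGACGTCA. The 4 windows differed in composition as well, from 50.4% G and C for Pcdh15 and 51.2% for Pcdh8 to 64.8% for Pcdh17 and 68.8% for Pcdh19, against a median of 52.4% over all windows. These 4 genes thus shared a direction in KO but no motif of the 3 searched, and no assay here measured binding at any of them.

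Per kb of exon not shared with another Pcdh gene, the highest values were those of C-type clustered genes and a few delta genes. Levels between genes were compared as mean CPM in WT per kb of exon that no other Pcdh gene uses. On that scale Pcdhgc5 came first at 48.9, Pcdhgc3 second at 34.5, and then Pcdh1 at 32.7, Pcdh9 at 32.3, Pcdh7 at 28.0, Pcdh10 at 22.9 and Pcdhac2 at 19.3. Pcdha genes had a median of 2.80, Pcdhb genes 3.15 and Pcdhg genes 7.26, and Pcdha8 was lowest at 1.22. Pcdh19 stood at 6.49 and Pcdh15 at 2.41, so these risen genes were not among the abundant members by that measure. Alpha genes share 2860 exonic bases of their constant exons and gamma genes up to 2119. How reads in those shared exons were assigned is not given in the sources used here, so values of single clustered genes are uncertain. If such reads were counted, this measure is too high for alpha and gamma genes, whose shared exons are left out of the length. Their ranks against beta and non-clustered genes are therefore uncertain too.

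Gamma genes held all 3 calls of the clusters (chromosome 18, 37661775 to 37841873 for the gamma array). These 3 are 13.6% of the 22 gamma genes, against 29.7% of all tested genes. Pcdhgc4, a C-type gene required for the survival of many cortical interneurons, ran from 19.6 to 26.7 CPM in WT with a median of 23.1. Its KO libraries had 28.0, 38.3, 29.4, 34.8 and 32.6 CPM, all above the WT range. The means were 23.1 ± 2.70 CPM (SD, n = 7) and 32.6 ± 4.12 CPM (SD, n = 5), with a log2 fold change of 0.50 ± 0.09 (SE; adjusted p = 0.00172, edgeR quasi-likelihood test). No single library ended that call. The neighbouring C-type genes Pcdhgc3 and Pcdhgc5, though far more abundant, had log2 fold changes of 0.08 ± 0.07 and 0.03 ± 0.06 and did not pass.

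Interneuron markers did not move together beside Pcdhgc4. Of 9 inhibitory markers 1 rose (Adarb2, a marker of caudally derived interneurons) and 2 fell (Gad1 and Sst), with a median log2 fold change of -0.02. Of all genes 15.3% were called higher and 14.4% lower. With density offsets, where 8.31% of all genes were called higher and 8.22% lower, Adarb2 kept its call. Gad1 and Sst did not (adjusted p = 0.486 and 0.0677, edgeR quasi-likelihood test). The summed level of the 9 markers was 853 to 1048 CPM in WT and 840 to 999 CPM in KO, so the ranges overlapped.

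Pcdhgb8, which RefSeq lists as a transcribed pseudogene, was the scarcest member with a call. It ran from 5.10 to 6.90 CPM in WT with a median of 5.47, and KO libraries had 14.3, 8.56, 6.36, 7.23 and 7.90 CPM. KO 1 stood well above the others, and KO 3 lay within the WT range. The log2 fold change was 0.61 ± 0.18 (SE; adjusted p = 0.0213, edgeR quasi-likelihood test). Without KO 1 it was 0.39 (adjusted p = 0.0346, same test), and counts behind it were only 25 to 70 per library.

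Pcdhga6 was the only member called lower. It ran from 23.8 to 32.1 CPM in WT with a median of 31.2, and had 20.5, 27.4, 21.3, 25.1 and 23.2 CPM in KO. KO 2 and KO 4 lay within the WT range. The log2 fold change was -0.29 ± 0.09 (SE; adjusted p = 0.0316, edgeR quasi-likelihood test), and 6 single libraries ended the call when left out (WT 3, 6 and 7, KO 1, 3 and 6). The 12 Pcdhga genes ranged from -0.29 to 0.32 with a median of 0.09. Pcdhga3 at -0.22 ± 0.10 and Pcdhga12 at -0.21 ± 0.12, picked after their values were seen, also lay below 0 and did not pass. With density offsets both were called lower beside Pcdhga6, at -0.37 (adjusted p = 0.00769) and -0.35 (adjusted p = 0.0484) by edgeR's quasi-likelihood test. The 7 Pcdhgb genes ranged from -0.07 to 0.61 with a median of 0.17. Pcdhga11, the most abundant Pcdhga gene, had a log2 fold change of 0.18 ± 0.09 (adjusted p = 0.116, edgeR quasi-likelihood test).

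In the alpha array (36930285 to 37187663) none of the 11 genes passed edgeR's test, against 29.7% of all tested genes. DESeq2 also called 0, against 26% of all genes. An unadjusted p under 0.05 by edgeR's test was found for 3 of the 11, against 5918 of 14274 tested genes. The log2 fold change was above 0 in 10 of 11 genes, with a median of 0.18. Pcdhac2, the abundant C-type gene of the array, ran from 46.6 to 65.9 CPM in WT with a median of 58.8 and had 66.5, 59.9, 67.1, 69.8 and 66.5 CPM in KO. All KO libraries but KO 2 were above the WT range, yet the log2 fold change of 0.18 ± 0.07 missed the threshold (adjusted p = 0.0740, edgeR quasi-likelihood test). It passed without WT 4, without WT 7 and without KO 2.

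The first 3 alpha genes in chromosome order, Pcdha1, Pcdha2 and Pcdha3, had log2 fold changes of 0.50 ± 0.20, 0.44 ± 0.19 and 0.52 ± 0.26 with TMM factors, and of -0.11, 0.15 and 0.38 with library total as a covariate; they were picked after their values were seen. Pcdha3 was unusually scattered in WT, from 2.10 to 8.98 CPM, and its KO libraries ranged from 7.36 to 9.55. None of the 3 passed. With TMM factors, log2 fold changes were smaller toward the far end of the array. The Spearman coefficient with gene order was -0.64 over 11 genes, which share libraries and constant exons. It was -0.069 over the 21 beta genes and 0.19 over the 22 gamma genes. No coefficient was computed for the other scalings. With library total as a covariate Pcdha1, the first gene of the array, was at -0.11 and Pcdhac2, the last, at 0.18. Pcdha5 and Pcdha12, among the more abundant alternate alpha genes, had log2 fold changes of 0.09 ± 0.12 and 0.05 ± 0.16.

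In the beta array (37294840 to 37521419) none of the 21 genes passed edgeR's test, against 29.7% of all tested genes. DESeq2 called 0, against 26% of all genes. An unadjusted p under 0.05 by edgeR's test was found for 0 of the 21, against 5918 of 14274 tested genes. Log2 fold changes ran from -0.07 to 0.30, with 17 above 0 and a median of 0.09. The 3 most abundant beta genes, which like the others of their array encode whole protocadherins without constant exons, differed little. Pcdhb17 had 35.0 ± 2.71 CPM (SD, n = 7) in WT and 37.2 ± 2.41 CPM (SD, n = 5) in KO, Pcdhb20 had 32.0 ± 2.41 and 33.6 ± 2.56 CPM, and Pcdhb9 had 30.9 ± 4.30 and 30.1 ± 4.44 CPM. Each of these differences was smaller than the SD within a group.

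One library shaped the wild-type spread of the clusters. WT 4 was the highest WT library in 37 of the 54 clustered genes (68.5%), against 23.4% of all tested genes, and in 5 of the 11 non-clustered genes. KO 1 was the lowest KO library in 24 of the 54 (44.4%), against 26.9% of all genes. Averaged over clustered genes on the log2(CPM + 0.5) scale with the WT mean at 0, WT 4 stood at 0.29 and the next WT library at 0.07. KO libraries stood at 0.03 for KO 1 and up to 0.22 for KO 4, all below WT 4. WT 4 had the largest total of the WT libraries and KO 1 the smallest of the KO libraries. WT 2, with the next largest WT total (5149711), stood lowest of all libraries at -0.20. KO 3, the deepest library (6617759), stood at 0.11, below KO 4. The part of depth in these levels was not tested.

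**Figure D3:**
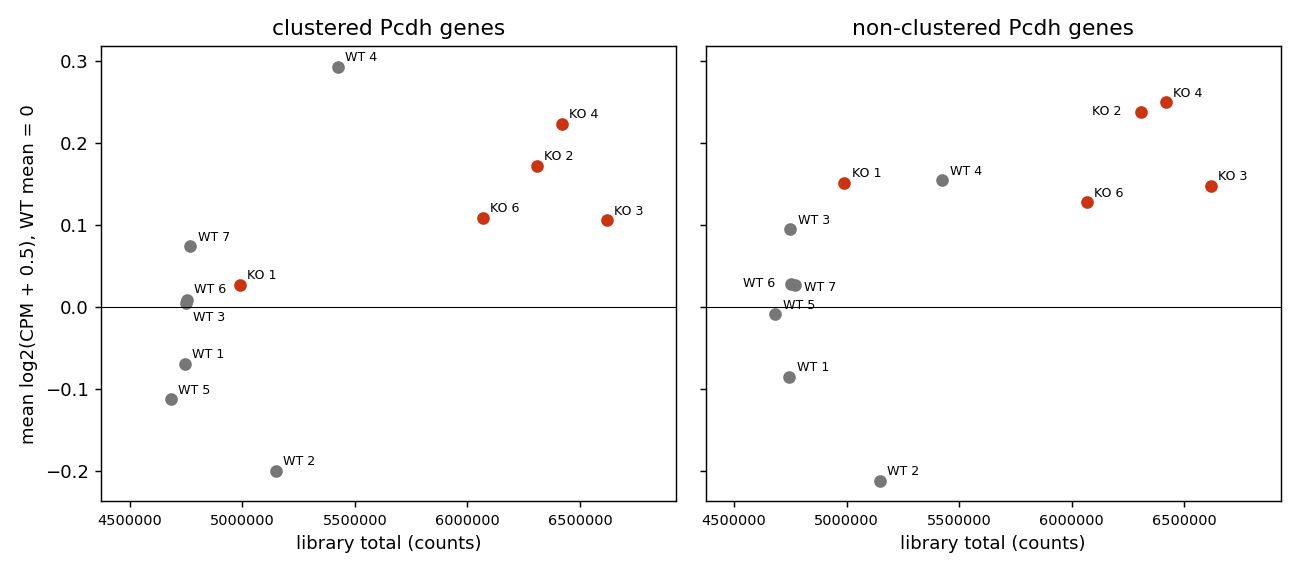
Mean log2(CPM + 0.5) of the 54 clustered (left) and 11 non-clustered (right) Pcdh genes, relative to the WT mean (vertical axis), against library total in counts (horizontal axis); 1 point per library. WT 4 at 0.29 is the highest of all 12 libraries for clustered genes, while KO 2 at 0.24 and KO 4 at 0.25 lie above it for non-clustered genes.

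Leaving out WT 4 moved the count for clustered genes more than that for non-clustered ones. Without it 9 clustered genes were called higher and 1 lower, with a median log2 fold change of 0.16, while the non-clustered genes kept 5 calls. Pcdha1, Pcdha2, Pcdhac2, Pcdhb18, Pcdhga9, Pcdhga11 and Pcdhgb4 were the 7 members added. The background was larger too, with 34.3% of tested genes called, 17% higher and 17.3% lower, against 18.5% of clustered genes. Without both WT 4 and KO 1, 12 members were called higher and 0 lower, where 37.2% of all genes were called, 17.7% higher and 19.5% lower. Without both WT 4 and KO 2, 12 were called higher and 1 lower, where 30.6% of all genes were called, 15.2% higher and 15.4% lower.

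Count density was lower for clustered genes than for non-clustered genes and all tested genes. Clustered genes had a median of 0.0192 counts per exonic base, non-clustered genes 0.0706 and all tested genes 0.0772. These exonic lengths include the constant exons that alpha and gamma genes share. If reads in those exons were not counted for each gene, this density is too low for alpha and gamma genes. Their offsets are therefore uncertain. Offsets that remove a smooth trend of counts with this density in each library lowered the median log2 fold change of clustered genes from 0.10 to -0.05, and adding exonic length to the trend gave -0.07. With library total as a covariate it was -0.09. The median of non-clustered genes stayed above 0 under all 3, at 0.10, 0.05 and 0.13. A direction for the clusters as a whole thus flipped with the scaling. The part of count density in the values of the clusters was not tested.

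With density offsets, 16.5% of all genes were called (8.31% higher and 8.22% lower), and 4 members were higher (Pcdh1, Pcdh15, Pcdh19 and Pcdhgc4) and 4 lower (Pcdh20, Pcdhga3, Pcdhga6 and Pcdhga12). Pcdh15 then had a log2 fold change of 0.46 (adjusted p = 0.00514), Pcdhgc4 one of 0.35 (adjusted p = 0.00956) and Pcdhga6 one of -0.45 (adjusted p = 0.00219), all by edgeR's quasi-likelihood test. Pcdh8, Pcdh17 and Pcdhgb8 lost their calls, with adjusted p of 0.0901, 0.126 and 0.157 by the same test. Pcdh19 kept its call at 0.22 (adjusted p = 0.0127) but not when length was added to the trend (0.13, adjusted p = 0.0906, same test). With length added, 16.2% of all genes were called (8.08% higher and 8.15% lower), and 3 members were higher and 6 lower. Pcdh1, Pcdh15 and Pcdhgc4 were called higher, and Pcdhga6 lower, with TMM factors alone and with either offset. With library total as a covariate 0.666% of all genes were called (0.588% higher and 0.0771% lower), and Pcdhgb8 was the only member (1.15, adjusted p = 0.0419, same test). In that gene KO 1 stood apart at 14.3 CPM, with the other KO libraries at 6.36 to 8.56. KO 1 was also the only KO library with a total inside the WT range. Its part in this call was not tested.

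**Figure D4:**
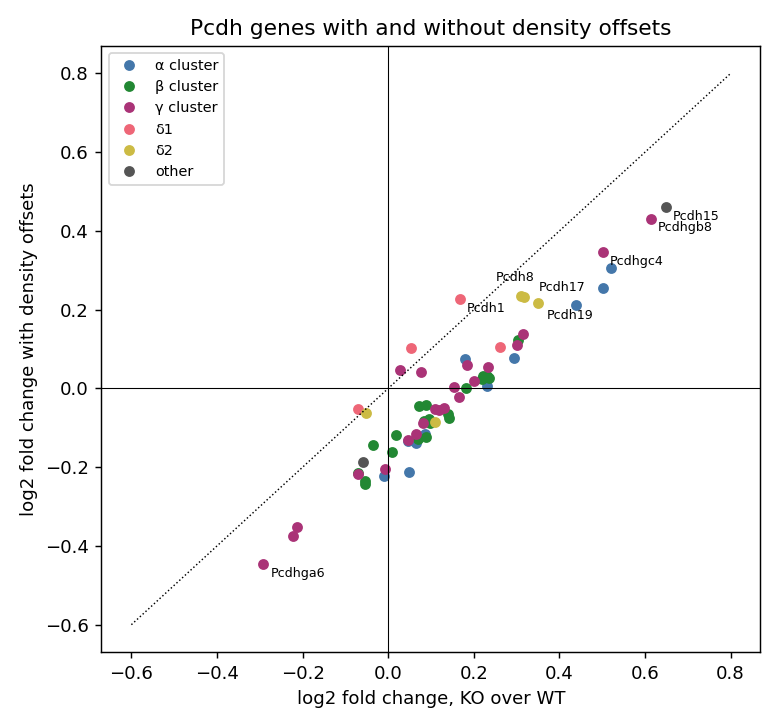
Log2 fold change of each Pcdh gene with density offsets (vertical axis) against the value without them (horizontal axis), coloured by class; the dotted line marks equal values and the 8 genes called without offsets are named. Nearly all clustered genes lie below the line, and Pcdh15, Pcdhgc4 and Pcdhga6 keep their direction.

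Genes that act on the clusters or with their products were counted from lists drawn up for the purpose. Of 15 tested factors reported to act on promoter choice, looping or methylation at the clusters, 5 rose and the other 10 did not pass, with a median log2 fold change of 0.04, against 15.3% of all genes called higher. Dnmt1, the maintenance DNA methyltransferase, rose by 0.22 ± 0.05 on the log2 scale, Dnmt3a, which methylates new sites, by 0.23 ± 0.07 and Setdb1, a histone H3 lysine methyltransferase, by 0.19 ± 0.06. Wiz rose by 0.16 ± 0.05, and Smchd1 was the fifth. Ctcf, which binds the variable promoters, had 105 ± 4.97 CPM (SD, n = 7) in WT and 105 ± 1.77 CPM (SD, n = 5) in KO. With density offsets 1 of the 15, Dnmt1, was called higher, against 8.31% of all genes.

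Among 32 reported partners, processing enzymes and effectors of protocadherins, 13 fell, 1 rose (Taok2) and 18 did not pass, with a median log2 fold change of -0.10. Of all genes 14.4% were called lower and 15.3% higher. Set fell by 0.32 ± 0.05 on the log2 scale, and Rac1, the GTPase upstream of the WAVE complex, by 0.30 ± 0.05. Prkca, a protein kinase C, fell by 0.27 ± 0.05 and Abi1, a WAVE complex subunit, by 0.21 ± 0.04. With density offsets 8 were called lower, Cyfip1 and Aph1b among them, and 1 higher, against 8.22% and 8.31% of all genes, and the median moved to -0.01.

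Other cadherins were counted in the same way, against 15.3% of all genes called higher and 14.4% lower. Of 17 classical and type II cadherins 2 rose, Cdh24 from 12.2 ± 2.67 CPM (SD, n = 7) to 25.9 ± 2.15 CPM (SD, n = 5), a log2 fold change of 1.08 ± 0.13, and Cdh18 by 0.26 ± 0.07 on the log2 scale. Of 13 large and atypical cadherins 3 rose (Celsr2, Celsr3 and Fat4) and 1 fell (Clstn1). Of 9 catenins, which link classical cadherins but not protocadherins to actin, 2 rose (Ctnnd1 and Arvcf) and 1 fell (Ctnnb1). With density offsets Cdh24 (0.93), Celsr2 and Ctnnd1 kept their calls. Cdh18, Celsr3, Fat4, Clstn1, Arvcf and Ctnnb1 lost theirs, and Ctnnb1 moved to 0.04. Cdh13 and Clstn3 were then called higher as well.

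Markers of the cell types in the tissue did not move in 1 direction. Among excitatory neuron markers 3 of 7 fell, with summed levels of 1527 to 1885 CPM in WT and 1254 to 1820 CPM in KO, and among 14 cortical layer markers 1 rose (Ntsr1). Falls were counted for 4 of 8 astrocyte, 3 of 8 oligodendrocyte and 4 of 8 microglia markers, and rises for 4 of 8 endothelial and 2 of 10 mural and leptomeningeal markers. Of all tested genes 14.4% were called lower and 15.3% higher. The tested markers of choroid plexus (5), striatum (8), olfactory bulb (5) and blood (1) did not pass. With density offsets, where 8.22% of all genes were called lower and 8.31% higher, the endothelial and mural rises no longer passed. Neither did the excitatory, inhibitory and oligodendrocyte falls, and the falls that still passed were 2 astrocyte and 3 microglia markers. Their part in the values of the protocadherins, which neurons and glia both express, was not tested.

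Genes flanking the clusters were counted in both directions. Of 36 other tested genes within the 912 kb from Pcdha1 to Pcdhgc5 or 1 Mb on either side, 8 rose and 7 fell, with a median log2 fold change of 0.01 and a range from -0.37 to 0.85. The 15 called were 41.7% of the 36, against 29.7% of all tested genes. With density offsets 2 were called higher and 5 lower, which is 19.4% of the 36, against 16.5% of all genes.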

How the data were processed

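Frontal cortex RNA of 12 mice was measured by RNA sequencing. What the authors deposited is a table of raw read counts, a whole number for each gene in each library. Per the submitters' processing notes, STAR (version not given) and mm10 were used. Which program counted reads, and whether it used strand, is not stated in them or in the labels, so values of overlapping, antisense and near-identical genes are uncertain. Groups and mouse numbers came from the sample titles. Nothing says that litters or batches differed.

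The test was the quasi-likelihood test of edgeR 4.0.16 (R 4.3.3) on these counts, with TMM factors, filterByExpr, no covariate beside genotype, and Benjamini-Hochberg adjustment over 14274 genes with a threshold of 0.05. The script was checked on simulated data. CPM used TMM-scaled totals. Exonic lengths were matched to GENCODE M21 for 14228 tested genes, and positions came from RefSeq. Density offsets used a loess of span 0.3 per library. Alternatives were DESeq2 1.42.0 (size factors and Wald test), upper-quartile factors, limma 3.58.1 (voom), no filter, 1 CPM in at least 5 libraries, mouse number as a block, library total as covariate, density offsets and leaving out each library. Offsets with length added, leaving out WT 4 with KO 1 or KO 2, and the unblocked fit of 10 libraries were chosen after seeing the data.

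The members and lists were chosen with earlier results of these data known. Named were Upf3b, Pcdh19, all members that passed, the 3 most abundant members per class and up to 4 passing genes per pathway list; others named were picked after their values were seen. From the lists, 2 genes are not reported here and were left out of the counts. The counts per member ran from 10 to 2384 per library, which limits precision for thinly counted clustered genes.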

Additional observations from a re-analysis of the deposited data

Results flagged for a closer look

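Of 132 groups of values (65 members and Upf3b in WT and in KO), 9 held a library far from the others of its group by Dixon's criterion, which chance meets in about 1 in 20 groups. All 9 are in CPM. Pcdhgb8 stood at 14.3 in KO 1, with the other KO libraries at 6.36 to 8.56. Pcdh7 stood at 215 in KO 2, with the others at 279 to 296, and Pcdhb13 at 15.7 in the same library, with the others at 11 to 12.3. Pcdha8 stood at 4.77 in KO 4, with the others at 2.49 to 2.86.

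WT 4 held 3 of the 5 wild-type values of this kind. It stood at 13.4 for Pcdha5 (others 8.77 to 10.8), at 40.3 for Pcdhb9 (others 27.8 to 31.4) and at 16.8 for Pcdhga1 (others 7.93 to 11.3). WT 7 held the other 2, at 13.3 for Pcdha9 (others 6.94 to 9.33) and at 12.2 for Pcdhac1 (others 7.74 to 8.21). All but Pcdh7 are clustered genes, as are 54 of the 65 members.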

How the results depend on the processing

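The counts of members called higher (7) and lower (1) stayed within 1.5 times their values with DESeq2 size factors, upper-quartile factors, the DESeq2 Wald test, limma-voom and both other filters. The count called higher moved to 1 with library total as covariate, 4 with density offsets, 3 with density and length offsets and 12 without both WT 4 and KO 1 or without both WT 4 and KO 2, and the count called lower to 0, 4 and 6 with these 3 scalings and to 0 without both WT 4 and KO 1. Leaving out single libraries gave 5 to 14 called higher, the most without WT 4, and 0 or 1 called lower. Among all genes 4233 were called, 95 with the covariate, 2351 with density offsets, 2310 with length added and 3129 to 4887 without single libraries.

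The clustered median changed sign with the covariate (-0.093), density offsets (-0.053) and density and length offsets (-0.070), and ran from 0.085 to 0.157 without single libraries; the non-clustered median ran from 0.128 to 0.191. Under these 3 scalings 23, 23 and 27 of the 65 members changed sign. Of the genes the report describes by name these included Pcdha12 (-0.051, -0.133, -0.160), Pcdha5 (-0.230, -0.115, -0.149), Pcdhb17 (-0.051, -0.041, -0.060) and Pcdhb20 (-0.097, -0.045, -0.043). The non-clustered Pcdh18 was also among them (-0.181, -0.084, -0.115), and Pcdh7 with the covariate only (0.073). Without both WT 4 and KO 1, Pcdh20 was at 0.015 and Pcdhb9 at 0.076. Without single libraries Pcdh7 ran from -0.112 to 0.005, Pcdha12 from -0.080 to 0.168, Pcdhb9 from -0.100 to 0.030 and Pcdhgc5 from -0.011 to 0.059. None of the genes named here had passed, and the cause was not tested.

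Same-numbered libraries were not alike: their deviations from the group means correlated at 0.14, -0.38, -0.05, -0.07 and 0.04. No library correlated best with its own number. The labels do not say what the numbers stand for, and so few of them cannot settle whether samples were paired. With the number as a replicate block in 10 libraries, 6 members were called higher, 0 lower and 2313 genes in all; the same libraries unblocked gave 5 higher and 0 lower. With the block Upf3b was at -3.78 and the clustered and non-clustered medians were 0.093 and 0.196. Thin counts limit the clustered genes, whose median SE was 0.135.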
